A study of Mus musculus with 4 samples.

Results

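The 10 genes described here handle iron and heme in myeloid cells: Fth1, Ftl1, Hmox1, Tfrc, Slc40a1, Slc11a1, Slc11a2, Ncoa4, Blvrb and Aco1. They were taken by exact symbol from the 53801 genes of the deposited count table, and all 10 were found and passed the filter on low counts (17462 genes tested). RNA was sequenced from osteoclast precursors, cells of the monocyte and macrophage lineage that become osteoclasts, taken from wild-type C57BL/6 mice. Cells numbered 1 and 2, from 2 mice per the labels, were each split between DKK1 (200 ng/ml) and PBS for 3 h, so that the 4 libraries form 2 pairs. DKK1, or Dickkopf-1, blocks the Wnt co-receptors LRP5 and LRP6 from outside the cell, and PBS is the saline control. The labels give no age, sex, tissue of origin or culture conditions of the cells. Each preparation has 1 library per treatment, so the preparations themselves were not replicated.

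Cells take up transferrin-bound iron through the receptor encoded by Tfrc and release it from endosomes through the divalent metal transporter encoded by Slc11a2. Iron that is not used is stored inside ferritin, a shell built of heavy (Fth1) and light (Ftl1) chains, or leaves through ferroportin (Slc40a1). Macrophages also recover iron from heme: heme oxygenase 1 (Hmox1) opens the ring and biliverdin reductases act on the product. Cytosolic aconitase, encoded by Aco1, becomes iron regulatory protein 1 when iron is short and then binds stem loops called iron responsive elements. Binding in the 5′ UTR blocks translation of ferritin, and binding in the 3′ UTR stabilises the transferrin receptor mRNA. Hmox1, Fth1, Ftl1, Blvrb and Slc40a1 are also known targets of the transcription factor NRF2 or of the heme-sensing repressor BACH1.

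The stem loops are shown because 4 of the 10 genes hold a match to the pattern of an iron responsive element. A script searched GENCODE M21 transcripts (GRCm38) for a C, any 5 bases, the loop CAGTGN and 5 bases that pair with those before the loop. Matches were found in Fth1, Ftl1, Slc40a1 and Tfrc, and capitals mark the unpaired C and the 6-base loop. Stem loops of any other form were not sought, so a gene without a match, such as Slc11a2, may still hold an element. Of 21901 protein-coding genes, 1.34% held such a match in a coding transcript, 0.142% in a 5′ UTR and 0.589% in a 3′ UTR. Fth1, Ftl1 and Slc40a1 each had 1 match, in the 5′ UTR:
Fth1 (chr19:9982731-9982760, plus strand): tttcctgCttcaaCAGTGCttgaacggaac
Ftl1 (chr7:45459779-45459808, minus strand): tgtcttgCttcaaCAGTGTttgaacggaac
Slc40a1 (chr1:45925465-45925494, minus strand): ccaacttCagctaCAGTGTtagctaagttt
Tfrc had 4 matches, all in the 3′ UTR and all on the plus strand:
Tfrc (chr16:32631218-32631247): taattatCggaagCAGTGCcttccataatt
Tfrc (chr16:32631597-32631626): acattatCgggagCAGTGTcttccataatg
Tfrc (chr16:32631662-32631691): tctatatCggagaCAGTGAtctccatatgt
Tfrc (chr16:32631709-32631738): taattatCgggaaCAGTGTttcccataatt

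A match is a description of the letters, and none of these libraries measures translation or protein. The NRF2 element TGACNNNGC was sought on both strands of the RefSeq promoter windows (GRCm38.p6), which run from 250 bases before to 50 after each start. Windows were matched for 7 of the 10 genes. Hmox1, Slc40a1 and Slc11a2 have none here, and elements that lie outside the windows were not sought. A match was found in 1 of the 12 windows of these genes (8.33%), against 12.4% of all 32851 windows. It lay in the Ncoa4 window chr14:32165539-32165838, on the plus strand. It is shown with 10 bases on either side, the match in capitals, as the one promoter match among the genes:
Ncoa4: aggcggggcgTGACCTGGCcggtagggta

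All 10 genes are protein-coding. On GRCm38, Fth1 (ENSMUSG00000024661) lies on chromosome 19 from 9980598 to 9985098, Ftl1 (ENSMUSG00000050708) on chromosome 7 from 45457944 to 45459884 and Ncoa4 (ENSMUSG00000056234) on chromosome 14 from 32159865 to 32179855. Tfrc (ENSMUSG00000022797) lies on chromosome 16 from 32608920 to 32632794, Slc11a2 (ENSMUSG00000023030) on chromosome 15 from 100387898 to 100425072, and Slc11a1 (ENSMUSG00000026177) on chromosome 1 from 74375195 to 74386062. Slc40a1 (ENSMUSG00000025993) lies on chromosome 1 from 45908068 to 45926523 and Aco1 (ENSMUSG00000028405) on chromosome 4 from 40143081 to 40198338. Hmox1 (ENSMUSG00000005413) lies on chromosome 8 from 75093621 to 75100589 and Blvrb (ENSMUSG00000040466) on chromosome 7 from 27447978 to 27466144. Hmox1, Tfrc, Slc40a1, Slc11a1, Blvrb and Aco1 share no exon or near-identical sequence with another model.

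Ftl1 is the uncertain one of the 10. It shares exons or near-identical sequence with 13 other models and held 63.8% of the counts of that group. Most of the rest sat in Gm10252, a model of unsettled type on the other strand that overlaps 355 exonic bases of Ftl1, with 116582 to 229027 counts a library, and in the small RNA model Gm22133. Ncoa4 held 65.6% of the counts it shares with the processed pseudogene Gm6768. No label says whether the libraries keep the strand, and reads of such models cannot be told apart from those of the gene.

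Ferritin dominated the set. The libraries held 53537927 and 46011873 counts with DKK1 (cells 1 and 2) and 53235399 and 41163663 with PBS. Fth1 and Ftl1 together took 2.33% and 2.16% of all counts with DKK1, against 2.40% and 2.21% with PBS. Fth1 had the most counts of all genes in both libraries of cells 2 and was second in both libraries of cells 1. On the deposited FPKM scale (the authors' values, scaled to gene length and library size), which allows genes to be compared, Fth1 had 13788 and 15107 with DKK1 (cells 1 and 2) and 13824 and 15323 with PBS. Ftl1 followed with 6816 and 4770 FPKM with DKK1 and 7214 and 4987 with PBS. Next came Hmox1 at 217 to 624 FPKM, then Slc11a1 at 163 to 194 and Blvrb at 79.1 to 89.7. Tfrc (12.5 to 32.4 FPKM) and Slc11a2 (at most 22.8) changed places between the preparations: Tfrc stood below Slc11a2 in cells 2 and above it in cells 1. Aco1 (10.9 to 12.6 FPKM), Ncoa4 (4.07 to 4.57) and Slc40a1 (1.82 to 3.45) came last, in that order in every library. A length behind each FPKM value was worked out with the summed counts as library size. For Fth1 it is 0.277 of the exonic length in GENCODE M21, with the exons of all transcripts merged. For the other 9 genes it is 1.11 times that length. A factor shared by 9 genes may come from another library size behind the FPKM and need not be one of gene length. The merged M21 length of Fth1, 3469 bases, is longer than single transcripts of the gene, such as ENSMUST00000235196 with 1494 bases. With the merged length, Fth1 would stand below Ftl1 per base in all 4 libraries (ratios of 0.478 to 0.791). The order of the 2 chains thus depends on the length taken for Fth1, and a merged length can understate its level.

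The cells carried markers of myeloid precursors: Csf1r, the M-CSF receptor, and Adgre1, a macrophage surface receptor, stood at 1969 to 2593 and 2109 to 2149 CPM (counts scaled to library size with TMM, edgeR's correction for RNA composition), and Tnfrsf11a, the receptor RANK, at 197 to 204. Over the 4 libraries together, Lyz2 and Ctss had the most counts of the 12 markers, although Ctss stood below Adgre1 and Csf1r in both libraries of cells 1. Markers of other cells were present too; the sums that follow are CPM of total counts, without TMM, and the 2 markers named for a list are those with the most counts over the 4 libraries together. The 10 neutrophil markers (Ngp and S100a9 first) summed to 5527 and 9310 CPM with DKK1 (cells 1 and 2) and to 5681 and 9139 with PBS. The 8 B cell markers (Igkc and Ighm first) summed to 316 and 3370 CPM with DKK1, against 468 and 3435 with PBS. The 14 erythroid markers found (Hba-a1 and Hbb-bs first) summed to 102.5 and 139.6 CPM with DKK1 and to 131.9 and 175.2 with PBS; Car1 had no count. The 8 T and NK cell markers (Nkg7 and Cd247 first) summed to at most 18.97 CPM over the libraries. In bulk RNA, fewer cells of a type and less RNA per cell cannot be told apart.

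**Figure D1:**
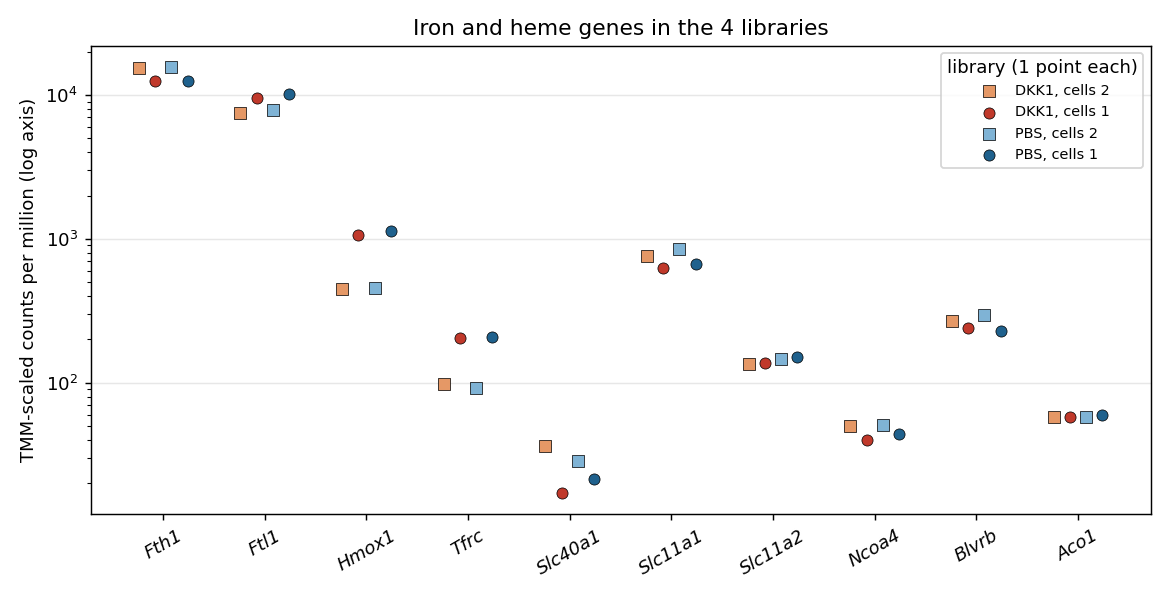
TMM-scaled CPM (log axis) of the 10 iron and heme genes, 1 point per library; circles are cells 1 and squares cells 2, orange and red DKK1 and blue PBS. The points part most clearly by preparation for Hmox1 and Tfrc, where DKK1 and PBS points of the same cells lie close together. Those of Slc40a1 part by preparation too, but its DKK1 and PBS points of the same cells lie further apart.

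The first comparison asked whether DKK1 changes the RNA of these genes within 3 h. None of the 10 passed edgeR's quasi-likelihood test (adjusted p from 0.959 to 0.998), with 2 at an unadjusted p under 0.05, Ftl1 and Slc11a1; DESeq2 and limma-voom called 0 as well. Over all genes tested the same rule called 0.0515% (9 genes; 7 or 0.0401% higher and 2 or 0.0115% lower), and 4.47% had an unadjusted p under 0.05. The log2 changes of the 10 genes ran from -0.13 to 0.04 with a median of -0.05, beside a median of -0.001 over all genes. For 9 of them the 95% confidence intervals together spanned -0.28 to 0.20 on the log2 scale, 0.822-fold to 1.15-fold. The exception was Slc40a1, whose interval was wider (-0.40 to 0.45).

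Among the storage genes, Fth1, the chain with ferroxidase activity, had 12453 and 15362 CPM with DKK1 (cells 1 and 2), against 12520 and 15640 with PBS. Each DKK1 library stood just under the PBS library of the same cells, and the groups overlapped; the log2 change was -0.02 (SE 0.02, 95% CI -0.07 to 0.03, edgeR adjusted p = 0.970). Ftl1 had 9525 and 7506 CPM with DKK1, against 10110 and 7877 with PBS. It was lower with DKK1 within each pair by a similar step, a log2 change of -0.08 (SE 0.02, 95% CI -0.13 to -0.02, unadjusted p = 0.0138, edgeR adjusted p = 0.959). Summed with the models that share its sequence, that change was -0.03. Ncoa4, the cargo receptor that takes ferritin to the lysosome for iron release, had 39.9 and 50.3 CPM with DKK1 and 43.8 and 50.5 with PBS (log2 -0.07, 95% CI -0.28 to 0.14, edgeR adjusted p = 0.970). The difference lay in cells 1, and the values of cells 2 were nearly equal; summed with its pseudogene, the change was -0.01.

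Among the import genes, Slc11a2 had 136 and 134 CPM with DKK1, against 152 and 145 with PBS. It was the one gene of the 10 whose DKK1 and PBS libraries did not overlap, which held for 16.2% of all tested genes. Its log2 change was -0.13 (SE 0.06, 95% CI -0.28 to 0.01, edgeR adjusted p = 0.959). Slc11a1, or NRAMP1, encodes a metal ion transporter of the macrophage phagosome. Its RNA does not show whether the protein works in cells of this strain. Slc11a1 had 628 and 756 CPM with DKK1 and 667 and 847 with PBS. Both pairs were lower with DKK1 but the groups overlapped (log2 -0.12, SE 0.04, 95% CI -0.23 to -0.02, unadjusted p = 0.0281, edgeR adjusted p = 0.959). Tfrc had 206 and 98.5 CPM with DKK1 and 209 and 91.4 with PBS, a log2 change of 0.04 (95% CI -0.12 to 0.20, edgeR adjusted p = 0.978). Both libraries of cells 2 lay far below both of cells 1.

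Slc40a1, the exporter ferroportin and the least abundant of the 10, went in opposite directions in the pairs. It had 17.1 CPM (973 counts) with DKK1, against 21.5 (1212 counts) with PBS, in cells 1. In cells 2 it had 36.5 CPM (1585 counts) with DKK1 and 28.6 (1106 counts) with PBS. The within-pair log2 ratios were -0.32 in cells 1 (95% counting interval -0.45 to -0.20) and 0.35 in cells 2 (0.24 to 0.46), so each lay outside counting error on its own side of 0. These exact intervals cover counting error only and compare libraries, not treatments. The fit over both pairs gave a log2 change of 0.02 (SE 0.17, 95% CI -0.40 to 0.45, edgeR adjusted p = 0.998). In the authors' deposited tables, which set 1 library against 1, Slc40a1 had log2 ratios of -0.30 (FDR 0.00337) and 0.34 (FDR 0.00074). Those tables call none of the 10 genes in either pair, Slc40a1 included, and the rule behind their calls was not examined.

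The heme genes and the iron sensor stayed close to their PBS values. Hmox1 had 1072 and 447 CPM with DKK1, against 1142 and 456 with PBS (log2 -0.06, SE 0.04, 95% CI -0.16 to 0.04, edgeR adjusted p = 0.959). Blvrb, which reduces biliverdin and flavins, had 240 and 268 CPM with DKK1 and 230 and 294 with PBS. Its pairs pointed opposite ways, and the fitted log2 change was -0.04 (95% CI -0.20 to 0.12, edgeR adjusted p = 0.979). Aco1 had 57.6 and 58.1 CPM with DKK1 and 59.3 and 58.0 with PBS (log2 -0.02, 95% CI -0.21 to 0.17, edgeR adjusted p = 0.993). Counting all 10, 6 genes were lower with DKK1 in both pairs, 0 were higher in both and 4 had opposite signs, which 47.6% of all tested genes had. The shares of all genes lower or higher in both pairs were not counted, so the 6 and 0 do not show a shared shift.

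**Figure D2:**
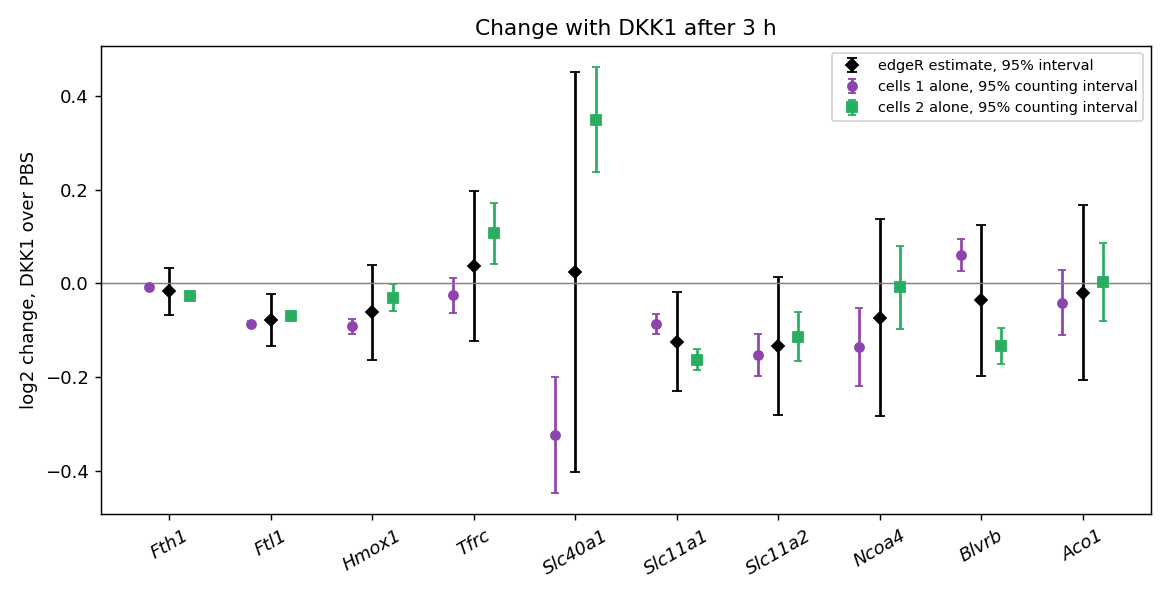
Log2 change with DKK1 over PBS for each gene: black diamonds are edgeR's estimates over both pairs with 95% confidence intervals, purple circles and green squares the ratios within cells 1 and cells 2 with 95% counting intervals. All changes are small; Slc40a1 had -0.32 in cells 1 and 0.35 in cells 2.

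The wider iron pathway was looked at in the same test. With 0.0515% of all tested genes called by edgeR, 0 calls would be likely in any list of this size. Of 74 further genes of iron uptake, storage, export, heme transport, heme breakdown, heme synthesis, iron sensing and iron-sulfur cluster assembly, 66 were tested and 0 were called by edgeR with DKK1 (3 with an unadjusted p under 0.05; median log2 -0.03), and 0 by DESeq2 or limma-voom. The 8 not tested had few or no counts; they include Hamp, which encodes hepcidin, and the mitochondrial ferritin gene Ftmt. The smallest p in iron-sulfur assembly was that of Hscb (log2 -0.46, edgeR adjusted p = 0.959). In iron sensing it was that of Ireb2, the second iron regulatory protein (log2 -0.06, edgeR adjusted p = 0.970). Among heme transporters it was that of Slc48a1 (log2 -0.08, edgeR adjusted p = 0.959); in uptake, storage and heme breakdown it was that of Slc11a1, Ftl1 and Hmox1. Heph had the smallest p of the export list but at most 30 counts in a library. Of 12 NRF2 and BACH1 targets outside iron handling, 0 were called by edgeR (1 with an unadjusted p under 0.05) and 0 by limma-voom. DESeq2 called 1, Gclm, a subunit of the enzyme that starts glutathione synthesis (log2 0.67, edgeR adjusted p = 0.108). Erythroid and B cell markers were lower with DKK1 at medians of -0.40 and -0.49 (log2), with 0 of 9 and 0 of 8 called by edgeR, DESeq2 or limma-voom (4 and 5 with an unadjusted p under 0.05 in edgeR). Stromal and endothelial markers had a median of 0.24, with 7 of 8 positive and 0 of 8 called by the same tools (2 with an unadjusted p under 0.05 in edgeR). The medians of the remaining marker lists lay between -0.15 and 0.01. The part of these lists in the values above was not tested.

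The second comparison set precursor cells 2 against precursor cells 1 in the same fit. It compares these 2 preparations, with a DKK1 and a PBS library of each as the only repeats. The largest fitted differences among the 10 genes were those of Hmox1, 2.45-fold lower in cells 2, and Tfrc, 2.19-fold lower. Of the 10 genes, 7 passed edgeR's test, with Fth1, Slc40a1, Slc11a1 and Blvrb higher and Ftl1, Hmox1 and Tfrc lower in cells 2. Over all tested genes 33.9% passed (3129 or 17.9% higher and 2784 or 15.9% lower), and 44.5% had an unadjusted p under 0.05, so a call by itself says little here. The log2 differences of the 10 genes had a median of 0.12, beside -0.003 over all genes.

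Hmox1 had 447 and 456 CPM in cells 2 (DKK1 and PBS), against 1072 and 1142 in cells 1. The log2 difference was -1.29 (SE 0.04, 95% CI -1.40 to -1.19, edgeR adjusted p = 1.4e-05), and it was -1.26 between the DKK1 libraries and -1.32 between the PBS libraries. Tfrc had 98.5 and 91.4 CPM in cells 2, against 206 and 209 in cells 1 (log2 -1.13, SE 0.07, 95% CI -1.29 to -0.97, edgeR adjusted p = 0.00012). For both genes, each library of cells 2 lay below each library of cells 1.

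The ferritin chains parted. Fth1 had 15362 and 15640 CPM in cells 2 and 12453 and 12520 in cells 1, a log2 difference of 0.31 (SE 0.02, 95% CI 0.26 to 0.36, edgeR adjusted p = 0.00018). Ftl1 had 7506 and 7877 CPM in cells 2 and 9525 and 10110 in cells 1, a log2 difference of -0.35 (SE 0.02, 95% CI -0.41 to -0.30, edgeR adjusted p = 0.00017). Summed with the models that share its sequence, Ftl1 again had -0.35. The ratio of Fth1 to Ftl1, which needs no scaling between libraries, was 3.17 and 3.07 on the FPKM scale in cells 2 (DKK1 and PBS), against 2.02 and 1.92 in cells 1. In counts with the overlapping and near-identical models added, it was 1.28 and 1.29 in cells 2 and 0.822 and 0.802 in cells 1. The size of the ratio thus depends on the gene models and lengths used, and its order between the preparations was the same both ways. DKK1 and PBS libraries of the same cells differed little in it.

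**Figure D3:**
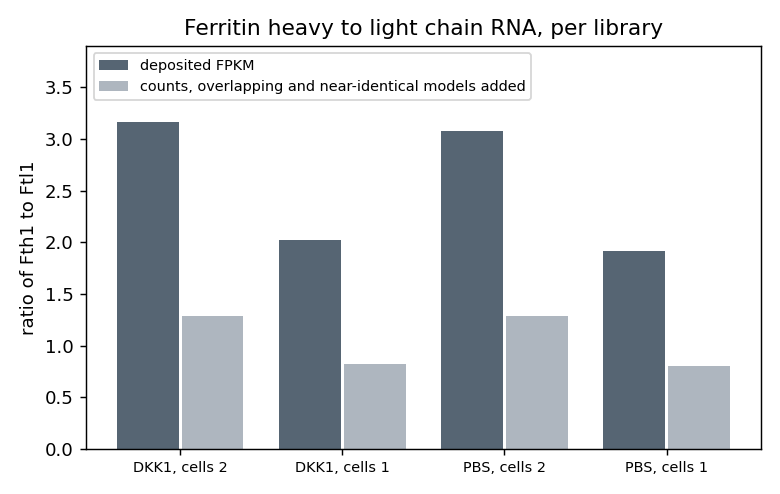
Ratio of Fth1 to Ftl1 in each library, from the deposited FPKM (dark bars) and from counts with overlapping and near-identical models added (light bars). Both libraries of cells 2 stand above both of cells 1, at 3.07 and 3.17 against 1.92 and 2.02 on the FPKM scale.

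Slc40a1 had 36.5 and 28.6 CPM in cells 2 and 17.1 and 21.5 in cells 1 (log2 0.75, SE 0.17, 95% CI 0.33 to 1.18, edgeR adjusted p = 0.0211). The difference was 1.09 between the DKK1 libraries and 0.41 between the PBS libraries. Slc11a1 had 756 and 847 CPM in cells 2 and 628 and 667 in cells 1 (log2 0.31, SE 0.04, edgeR adjusted p = 0.00361). Blvrb had 268 and 294 CPM in cells 2 and 240 and 230 in cells 1 (log2 0.26, SE 0.06, edgeR adjusted p = 0.029). For all 3, each library of cells 2 lay above each library of cells 1. Ncoa4 had 50.3 and 50.5 CPM in cells 2, against 39.9 and 43.8 in cells 1, and missed the threshold (log2 0.27, 95% CI 0.06 to 0.48, edgeR adjusted p = 0.0581). Slc11a2 had log2 -0.04 (95% CI -0.19 to 0.11, edgeR adjusted p = 0.646) and Aco1 -0.01 (95% CI -0.20 to 0.18, edgeR adjusted p = 0.941). These were the 2 genes whose libraries overlapped between the preparations; libraries did not overlap for 8 of the 10 genes and for 69.0% of all tested genes.

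The smaller differences depend on the scaling. With total counts in place of TMM scaling, the median of all genes moved to -0.17, and the calls split into 2196 higher and 4193 lower. The 10 genes kept their signs, with Hmox1 at -1.46, Tfrc at -1.30, Ftl1 at -0.52 and Fth1 at 0.14 still called, while Slc40a1 (0.58), Slc11a1 (0.14) and Blvrb (0.09) lost the call and Slc11a2 (-0.21) gained it. Blvrb also lost its call with each of the 4 libraries left out in turn (edgeR adjusted p of 0.0506 to 0.131), Slc40a1 without the DKK1 library of cells 1 (0.0579) or of cells 2 (0.126), and Slc11a1 without the DKK1 library of cells 1 (0.0592) or the PBS library of cells 2 (0.0888). Hmox1, Tfrc, Fth1 and Ftl1 passed with each library left out; these fits have no treatment term.

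**Figure D4:**
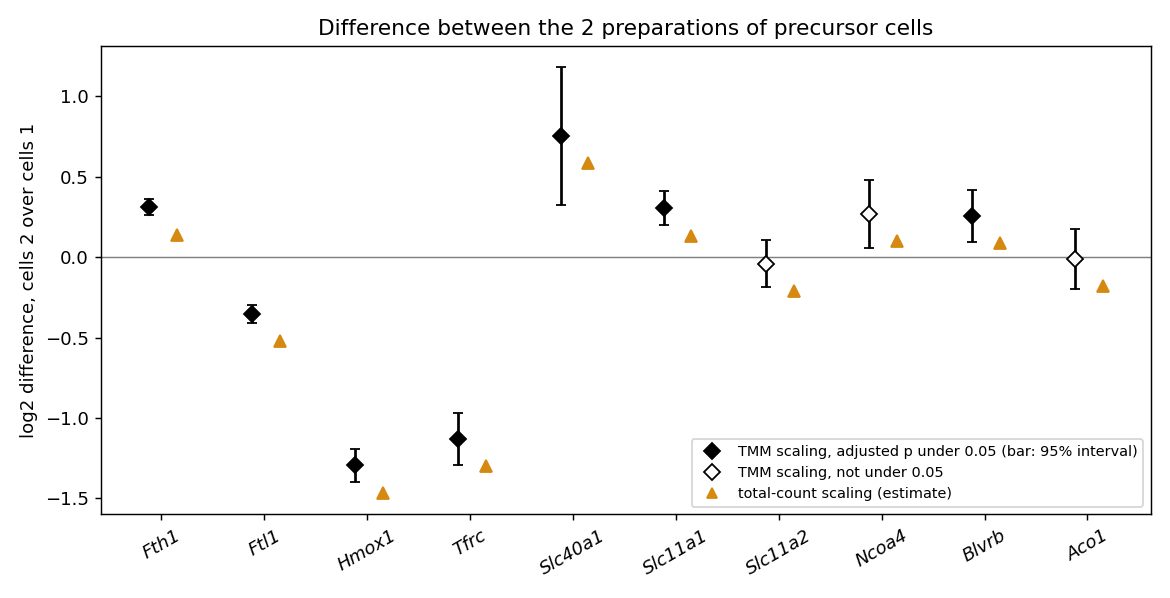
Log2 difference of precursor cells 2 over 1 for each gene: diamonds are edgeR estimates with TMM scaling and 95% confidence intervals (filled where the adjusted p is under 0.05), orange triangles the estimates with total-count scaling. Hmox1 (-1.29) and Tfrc (-1.13) lie far below 0 under both scalings.

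Around these genes, several partners differed between the preparations. Of the 66 other iron genes tested, 10 were higher and 16 lower in cells 2, and 40 were not called (median log2 -0.10). Over all tested genes 17.9% were higher and 15.9% lower, so these counts do not set the iron genes apart. In iron uptake, Slc39a14 (log2 -1.50), a zinc and iron importer, and Steap3 (log2 -1.24), the endosomal ferrireductase that serves the transferrin cycle, were lower in cells 2 like Tfrc, with edgeR adjusted p of 0.00017 and 0.00029; Trf, transferrin, was higher (log2 0.65). In heme breakdown, the constitutive heme oxygenase gene Hmox2 went the other way from Hmox1: it had 130 and 133 CPM in cells 2, against 71.8 and 65.9 in cells 1 (log2 0.93, SE 0.07, edgeR adjusted p = 0.00039). Among heme transporters, Slc48a1, which brings heme out of the phagolysosome, was lower (log2 -0.57, edgeR adjusted p = 0.00043), as were Cd163, the haemoglobin scavenger receptor (log2 -3.63, at most 3.20 CPM), and Pgrmc1 (log2 -0.61).

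In iron sensing, Fbxl5, which directs the breakdown of iron regulatory protein 2 when iron is ample, was lower in cells 2 (log2 -0.64, edgeR adjusted p = 0.00191). Keap1, which holds NRF2 down, was higher (142 and 148 CPM in cells 2 and 66.5 and 59.9 in cells 1; log2 1.20, edgeR adjusted p = 0.0002), as was the repressor gene Bach1 (log2 0.54, edgeR adjusted p = 0.00226). Skp1a was lower (log2 -0.28). In storage, Pcbp1, an iron chaperone for ferritin, was lower (log2 -0.20, edgeR adjusted p = 0.0248), and in export the ferroxidase gene Cp was higher (log2 1.19, edgeR adjusted p = 0.00054). In heme synthesis, Ppox (log2 0.59) and Alas2 (log2 1.15) were higher and Alas1 (log2 -0.23) was lower, with 9 of 13 genes not called. Of 18 iron-sulfur assembly genes, 2 were higher and 4 lower, led by Ciapin1 (log2 -0.96), Hspa9 (log2 -0.48), Iscu (log2 0.49) and Glrx5 (log2 -0.75).

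Of the 12 NRF2 and BACH1 targets outside iron handling, 8 were lower in cells 2, 0 were higher and 4 were not called (median log2 -0.60). Over all tested genes 15.9% were lower. Slc7a11, the cystine importer, had 61.0 and 59.9 CPM in cells 2 and 255 and 285 in cells 1 (log2 -2.15, SE 0.07, edgeR adjusted p = 1.65e-05). Txnrd1, a thioredoxin reductase, had 269 and 246 CPM in cells 2, against 723 and 747 in cells 1 (log2 -1.52, edgeR adjusted p = 2.6e-05). Gclc (log2 -1.93) and Gclm (log2 -0.76), which make glutathione, were lower too. Nqo1 (log2 0.19) and Osgin1 (log2 0.11) were not called. Of the 10 iron genes, Hmox1 and Ftl1 thus had the sign of this list, and Fth1, Blvrb and Slc40a1 the opposite sign.

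**Figure D5:**
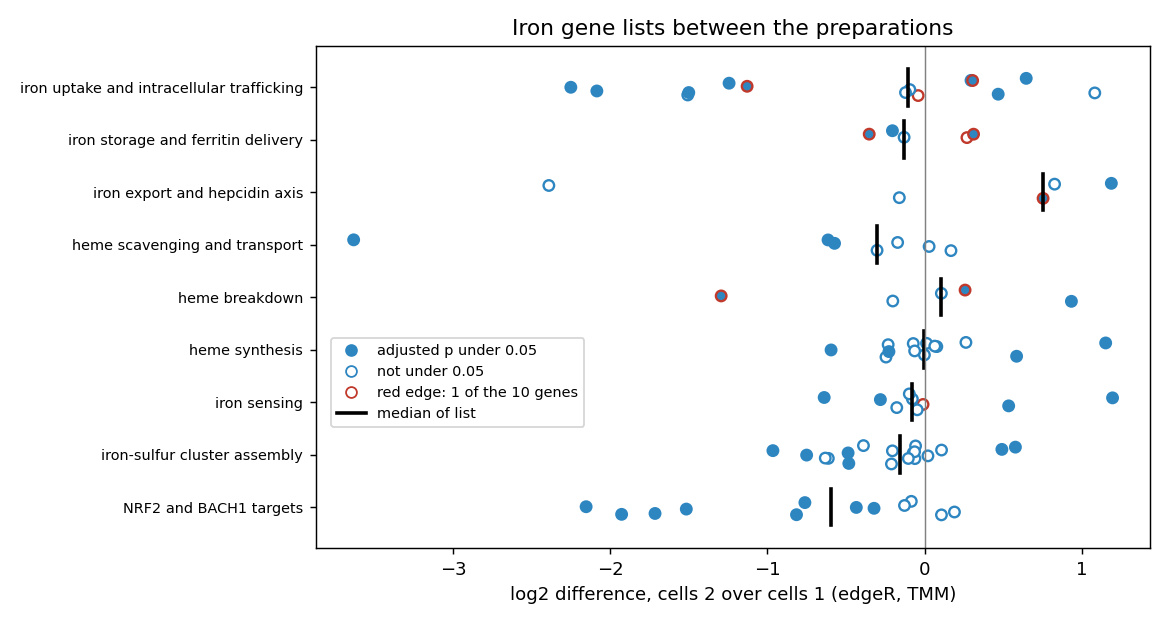
Log2 difference of precursor cells 2 over 1 for the tested genes of each iron list and of the NRF2 and BACH1 list; each circle is a gene, filled where the edgeR adjusted p is under 0.05, red-edged for the 10 genes, and the black line is the list's median. The NRF2 and BACH1 list has the lowest median, -0.60, with 8 of 12 genes called lower.

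Cell type markers differed between the preparations as well, in a test that called 33.9% of all tested genes. In cells 2, 9 of 10 neutrophil markers were higher (median log2 0.76), 5 of 9 tested erythroid markers were higher (median log2 0.54) and 7 of 8 B cell markers were lower with Igkc higher. Of 12 myeloid precursor markers 7 were higher and 1, Lyz2, was lower (median log2 0.50); Ly6c2, a marker of inflammatory monocytes, had a log2 difference of 2.84. Of 12 markers of iron-recycling macrophages (C1qb and C1qc first over all libraries, Marco in both of cells 1) 6 were higher and 3 lower, among them Spic (log2 1.62) and Axl (log2 2.17) higher and Marco (log2 -2.55) and Mrc1 (log2 -1.43) lower. Of 8 mast cell, basophil and megakaryocyte markers (Pf4 and Ppbp first) 2 were higher and 2 lower, of 8 stromal and endothelial markers (Kdr and Col1a1 first over all libraries, Col1a1 and Col1a2 in both of cells 1) 4 were higher and 1 lower, and of 6 tested T and NK cell markers 0 were called. The part of these differences in the iron gene values was not tested, and mouse, preparation and cell make-up cannot be told apart in this design.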

How the data were processed

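The table of counts was deposited by the authors as whole numbers per gene without normalization. Per the submitters' processing notes, fastp and HISAT2 with mm10 were used; how reads were counted, and on which gene models, is not stated. The authors deposited log2 ratios, p-values with FDR and FPKM values for each pair of libraries; their test and gene lengths are not stated. Counts of all 4 libraries were fitted with edgeR 4.0.16 in R 4.3.3 (filterByExpr, TMM, quasi-likelihood with legacy off). The terms were precursor cells and treatment, with 1 residual degree of freedom. Two-sided p-values were adjusted by Benjamini-Hochberg over 17462 genes (threshold 0.05) and measure only the spread between these libraries. TMM sets the size of differences between the preparations.

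The precursor cell number in the labels pairs the libraries; within treatments, the deviations of cells 1 from the mean correlated at 0.726 over genes (log2 CPM, prior count 2). The 10 genes and all lists were chosen with earlier results of these data known. Named are the 10 genes, of each other list up to 4 called genes with the smallest p (1 where none was called), and the 2 most abundant markers of each cell type. Csf1r, Adgre1, Tnfrsf11a, Car1, Marco, Mrc1, Axl, Spic, Ly6c2, Nqo1, Osgin1, Hamp and Ftmt were added after their values were seen. A listed gene that the rule names is not reported here. Positions and near-identical models (BLAST 2.17.0, identity of 95% or more across at least 100 bases and 50% of the shorter transcript) come from GENCODE M21, which holds 53706 of the gene IDs. The model was tested on simulated counts. Alternatives used DESeq2 1.42.0, limma 3.58.1, other scalings and filters, and left-out libraries.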

Additional observations from a re-analysis of the deposited data

Results flagged for a closer look

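Of the 10 genes, 4 had opposite signs of the within-pair log2 ratio in the preparations, and these differences were not tested, since each preparation has 1 library per treatment. Slc40a1 had -0.32 in cells 1 and 0.35 in cells 2. Blvrb had 0.061 in cells 1 and -0.13 in cells 2. Tfrc had -0.025 in cells 1 and 0.11 in cells 2, and Aco1 had -0.041 in cells 1 and 0.0031 in cells 2, where the counting interval of Aco1 holds 0 in both and that of Tfrc in cells 1. Opposite signs were found for 47.6% of all tested genes.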

How the results depend on the processing

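For DKK1 over PBS, 0 of the 10 genes were called under every alternative run. Over all genes, edgeR called 9, against 5 with upper-quartile scaling, 3 with total-count scaling (chosen after seeing the data), 16 with a stricter filter, 3 with legacy quasi-likelihood, 2 with limma-voom and 46 with DESeq2. Without the filter it called 0 (911 with an unadjusted p under 0.05). With no replicate block, so without the pairing, it called 0 (116 with an unadjusted p under 0.05), and also 0 with any 1 library left out as well (84 to 129). Leaving out either library of a pair leaves the other pair, a value with no test: Slc40a1 then ranged from -0.32 to 0.35, Blvrb from -0.13 to 0.061, Tfrc from -0.025 to 0.11 and Aco1 from -0.041 to 0.0031. With total counts the ratio of Ncoa4 in cells 2 turned to 0.00057.

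For cells 2 over 1, 3509 genes were called without the filter, against 5913, and 3194 to 4574 with 1 library left out (3194 without DKK1 and 3346 without PBS of cells 2), when 4 to 6 of the 10 genes were called. Slc11a2 then ranged from -0.12 to 0.034 (0.0062 without DKK1 of cells 2) and Aco1 from -0.031 to 0.0086. Ncoa4 passed with the stricter filter (edgeR adjusted p = 0.0404), without the treatment term (0.0484) and summed with its pseudogene (0.0195). Without the filter Slc40a1 (0.119) and Blvrb (0.129) lost their calls, and Blvrb did with upper-quartile scaling (0.0645). The cause was not tested. Slc40a1, at 973 to 1585 counts a library, has the least depth of the 10.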
